A study of Mus musculus with 12 samples.

Results

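The smooth muscle and contractile genes are 10 genes of the thin filament, the myosin light chain and the muscle intermediate filament: Acta2, Actg2, Tagln, Cnn1, Cnn2, Tpm1, Tpm2, Lmod1, Myl9 and Des. They were listed by name, with earlier results of these data known, out of 20886 genes named on the array, and 16 probes matched them. RNA of 3T3-L1 pre-adipocytes, an embryonic mouse fibroblast line that can become fat cells, was measured on 12 two-colour arrays. On each array cells co-cultured with RAW264.7 macrophages, which sat above them in an insert with 0.4 µm pores, carried Cy5, and time-matched cells grown alone carried Cy3. By the study's description both channels of an array had the same treatment, namely none (NT), serotonin (S), cortisol (C) or the pair of them (CS). Each hormone was at 100 µM, treatment lasted 6, 24 or 48 h, and the medium was renewed after 24 h. On 3 arrays the cells alone did not follow that description in a check of marker genes given below. Each of the 12 conditions had 1 array, so a time was represented by 4 arrays of different treatment and not by replicates of a culture. No dyes were swapped, so dye and co-culture cannot be told apart. The arrays of a time shared 1 slide that held no other time, and each treatment kept the same position on it, so slide and time, as well as position and treatment, cannot be told apart.

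Smooth muscle actin and its partners form the contractile bundles of smooth muscle, and fibroblasts make the same proteins when they take on a myofibroblast character. Their genes are known targets of serum response factor (SRF), which binds a DNA element called the CArG box together with its cofactors MRTF or myocardin, and they are widely known to respond to TGF-beta and to the state of the actin cytoskeleton. In 3T3-L1 cells the actin stress fibres of the fibroblast are known to be lost when the cells turn into fat cells.

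Of the 10 genes, 9 were well above background on enough arrays to be tested among 13887 genes. The exception was Lmod1 (leiomodin, an actin nucleator of smooth muscle), whose probe was well above background on 1 array in each channel, and no fold is given for it. Its mean raw signal was 57 in co-cultured cells and 99 in cells alone. Among the genes tested Actg2 (177 and 342), Cnn1 (219 and 178) and Des (122 and 147) were dim too, so their values lie near the floor. Of the 10 fibroblast markers listed, Lum was well above background on 3 arrays in each channel. The others (Col1a1, Col1a2, Col3a1, Col5a1, Pdgfra, Pdgfrb, Thy1, Dcn and S100a4) were so on 12 of 12 arrays in both channels. Of the defining genes of mature smooth muscle, Myh11 and Myocd were well above background on 0 arrays, whereas Smtn, Cnn1 and Des were on 12. Of the 15 macrophage markers listed, 14 were on the array and 11 were tested; Cd53, Aif1, Csf1r, Cd14 and Itgam were well above background on 12 of 12 arrays in both channels. Mrc1, Ctss and Fcer1g were so on 12 arrays in co-cultured cells and on 9 to 10 in cells alone, and Lyz2 on 8 and 7. Tyrobp was so on 6 and 0 arrays, Adgre1 on 3 and 1, Laptm5 on 0 and 1, and Ptprc and Spi1 on 1 in each channel. The summed log2 intensity of the tested macrophage markers was 13.00 to 13.58 in co-cultured cells and 12.33 to 13.14 in cells alone, and 6 of the 11 were called higher in co-culture and 0 lower at 6 h, 2 and 0 at 24 h, and 6 and 1 at 48 h, where 4.36%, 4.66% and 14.5% of all genes tested were called higher. Their part in the results was not tested.

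The arrays labelled S 6 h, S 24 h and CS 24 h stood apart in the channel of the cells grown alone. Zbtb16, a gene known to be strongly induced by glucocorticoids, had log2 intensities of 8.34 to 8.71 in the NT cells grown alone and 11.26 to 11.35 in those given cortisol. It was at 10.66 on the array labelled S 6 h and 10.56 on that labelled S 24 h, against 8.52 on the array labelled S 48 h, and at 9.11 on that labelled CS 24 h, against 11.30 and 11.45 on the other CS arrays. Fkbp5, Tsc22d3 and Per1, which glucocorticoids also induce, were likewise lower in the cells alone of the array labelled CS 24 h (13.07, 13.40 and 13.30) than of C 24 h (14.42, 15.32 and 14.62). Sgk1 had no usable spot on the array labelled CS 24 h. In the co-cultured channel Zbtb16 followed the labels, with 8.26 to 8.96 without cortisol and 10.65 to 11.17 with it. Values without these 3 arrays are given beside the calls of the 9 genes and of the gene lists that they touch.

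Promoter windows are shown for the members in which a form of the SRF element was found. RefSeq windows of assembly GRCm38.p6, which run from 250 bases before to 50 bases after the start site, were at hand for 8 of the 10 genes. Tagln and Actg2 had no window and were not searched. A CArG box is read the same on both strands; it was searched for as its exact consensus, and a CArG-like box as the same pattern with exactly 1 G or C in its core, so that neither search overlaps the other. Exact boxes lay in the windows of 2 members, Cnn2 and Myl9, and 1.63% of all 32851 windows of this length held one. CArG-like boxes lay in those of 2 members, Acta2 and Myl9, with 8.5% of all windows holding one. The capitals mark the boxes; they start at positions -84 and -34 from the start site in Acta2, at -161 (exact) and -99 (CArG-like) in Myl9, and at -56 in Cnn2. No match was found in the windows of Cnn1, Tpm1, Tpm2, Des and Lmod1, which says only that these patterns are not in these windows.
Acta2 (chr19:34255324-34255623, minus strand): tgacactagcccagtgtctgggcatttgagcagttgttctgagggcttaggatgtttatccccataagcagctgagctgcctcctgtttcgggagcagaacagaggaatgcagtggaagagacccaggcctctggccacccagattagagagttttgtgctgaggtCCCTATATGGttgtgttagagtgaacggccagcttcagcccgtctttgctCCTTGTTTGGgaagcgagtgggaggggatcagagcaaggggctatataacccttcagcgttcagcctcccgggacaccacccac
Myl9 (chr2:156775214-156775513, plus strand): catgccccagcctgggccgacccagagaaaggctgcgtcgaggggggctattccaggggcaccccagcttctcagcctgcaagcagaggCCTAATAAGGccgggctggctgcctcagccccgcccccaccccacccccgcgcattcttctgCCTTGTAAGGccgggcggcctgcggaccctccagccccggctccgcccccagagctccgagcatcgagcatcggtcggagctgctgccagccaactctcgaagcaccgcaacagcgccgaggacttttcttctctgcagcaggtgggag
Cnn2 (chr10:79988350-79988649, plus strand): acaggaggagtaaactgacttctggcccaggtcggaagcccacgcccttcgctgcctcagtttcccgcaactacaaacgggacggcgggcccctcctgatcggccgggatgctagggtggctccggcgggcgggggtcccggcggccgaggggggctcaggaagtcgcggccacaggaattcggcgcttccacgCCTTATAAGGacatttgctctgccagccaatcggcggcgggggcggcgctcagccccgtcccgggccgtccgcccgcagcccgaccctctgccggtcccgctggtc

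At 6 h transgelin, the myosin light chain and gamma smooth muscle actin were lower in pre-adipocytes with macrophages than in those grown alone, and so was Acta2 after loess, though it turned positive when arrays were only centred on their median. Of the 9 genes tested, 4 were called lower (adjusted p under 0.05 and at least 1.5-fold by limma, the rule for every call here) and 0 higher, where 5.24% of all genes tested were called lower and 4.36% higher. The call on Tagln was lost without the 3 arrays of doubted label. For Acta2, Tagln, Actg2 and Myl9 the NT array, the only hormone-free one of 6 h, had the ratio nearest 0 (-0.62, -0.43, -0.59 and -1.14). The median log2 ratio of co-cultured over alone was -0.55 over the 9 genes and -0.02 over all genes; with median centring these were 0.02 and 0.22. At 24 h none of the 9 was called, although 4 had an unadjusted p under 0.05, and 3.68% of all genes were called lower and 4.66% higher. At 48 h 3 were called lower and 2 higher, with 16.8% and 14.5% of all genes called lower and higher. With the arrays scaled to a common spread of ratios, 5 were called at 6 h (Cnn2 besides those above), 0 at 24 h and 0 at 48 h: there Tagln missed the adjusted p (0.0554) and Acta2, Myl9, Tpm1 and Cnn1 the fold threshold. With this scaling 8.14% of all genes were lower and 6.26% higher at 6 h, and 8.88% and 7.45% at 48 h. Centring on the median without loess left 3 called lower at 6 h and moved the median of all genes to 0.22, 0.38 and -0.16 at 6, 24 and 48 h, with 3457, 4594 and 1568 genes called higher and 225, 107 and 3625 lower in place of 606, 647 and 2009 higher and 727, 511 and 2328 lower. The p-values rest on what is left after additive terms for time and treatment, that is, on how the treatments' differences varied between times, and not on repeated cultures.

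**Figure D1:**
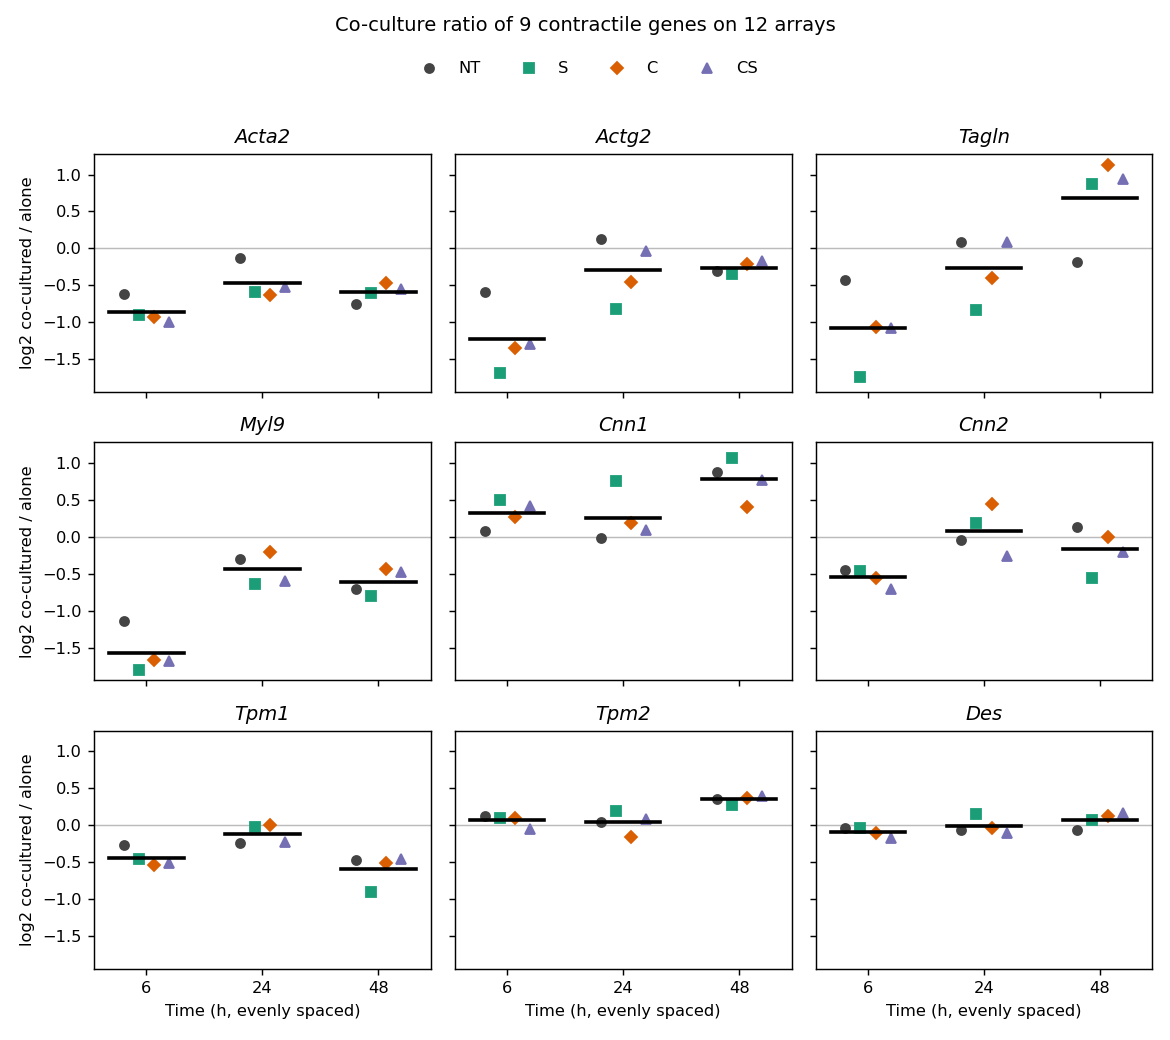
Log2 ratio of co-cultured over alone (y axis) at 6, 24 and 48 h (x axis) for 9 genes, with 1 point per array coloured by treatment and a bar at the mean of the 4 arrays. Myl9, Actg2 and Tagln lay below 0 on 4 of 4 arrays at 6 h; Acta2 did too in these loess-normalised ratios but lay above 0 on all 4 when arrays were only centred on their median; Tagln was above 0 on 3 of 4 arrays at 48 h.

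Myl9 encodes the regulatory light chain of smooth muscle and non-muscle myosin, whose phosphorylation drives contraction. Its log2 ratio at 6 h was -1.14 with NT, -1.80 with S, -1.67 with C and -1.68 with CS. At 24 h it was -0.30, -0.65, -0.21 and -0.60 in the same order, and at 48 h -0.71, -0.80, -0.44 and -0.48. After loess the gene was thus lower in co-culture on 12 of 12 arrays, and the 4 arrays of 6 h did not overlap those of the later times. The fitted log2 ratio was -1.57 ± 0.10 (SE, limma adjusted p = 8.31e-06) at 6 h, or 2.97-fold lower, and -1.47 to -1.71 when any 1 array was left out and -1.56 (adjusted p = 0.000991) without the 3 arrays. At 48 h it was -0.61 ± 0.10 (adjusted p = 0.00018), and it was -0.48 without the NT array of 48 h and -0.40 with scaled arrays, both under the fold threshold. The ratio rose by 1.13 ± 0.14 from 6 to 24 h (adjusted p = 0.00322), a change that was 1.21 with an adjusted p of 0.111 without the 3 arrays named above.

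Acta2, smooth muscle alpha actin, is the usual marker of myofibroblasts. It was read by 10 spots per array, whose log2 ratios had an SD of 0.03 to 0.12 within an array. The log2 ratio at 6 h was -0.62 with NT, -0.90 with S, -0.93 with C and -0.995 with CS. It was -0.12, -0.59, -0.63 and -0.52 at 24 h and -0.76, -0.60, -0.47 and -0.54 at 48 h. Acta2 was thus lower in co-culture on 12 of 12 arrays after loess, though not at 6 and 24 h with median centring. The fitted value at 6 h was -0.86 ± 0.09 (limma adjusted p = 3.91e-05), but it turned to 0.36 when each array was centred on its median with no loess, a setting in which the median of all genes was 0.22; loess took between 1.14 and 1.38 from this gene on the 4 arrays of 6 h. With loess and without the 3 arrays it was -0.85 (adjusted p = 0.0032). At 24 h it was -0.47 ± 0.09 (adjusted p = 0.00127, under the fold threshold), and 0.44 with median centring against 0.38 for all genes. The deposited log ratios, which Feature Extraction had normalised for dye, gave -0.69 to -1.08 on the log2 scale at 6 h. At 48 h the fitted value was -0.59 ± 0.09 (adjusted p = 8.04e-05), just past the threshold of 1.5-fold, and it was -0.56 with median centring, -0.40 with scaled arrays and -0.44 without the NT array of 48 h, all under that threshold.

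**Figure D2:**
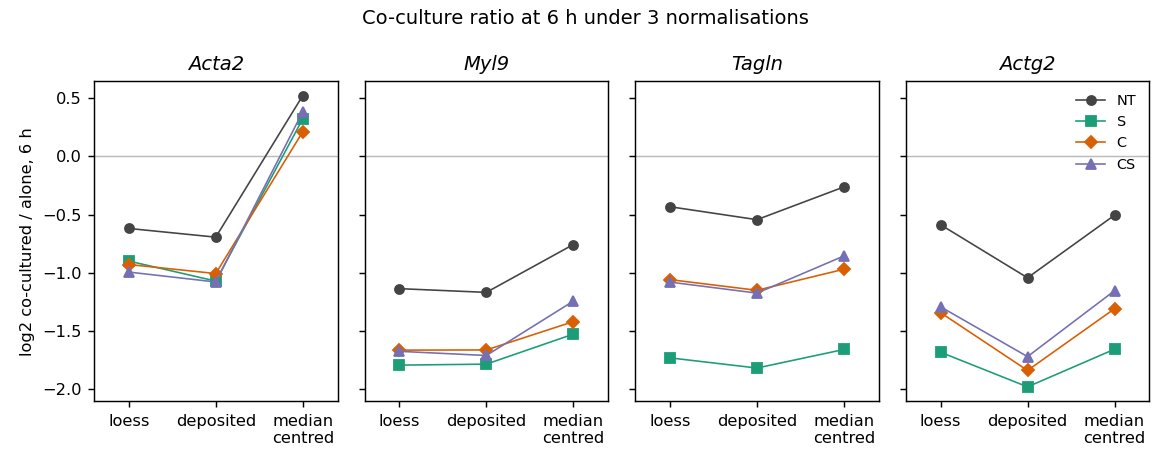
Log2 ratio of co-cultured over alone at 6 h (y axis) for 4 genes under loess, the deposited ratio and centring on the array median (x axis), with 1 line per array. Acta2 changed from below to above 0 with median centring on all 4 arrays, while Myl9, Tagln and Actg2 stayed below 0 on all 4 under each normalisation.

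Actg2 encodes gamma smooth muscle actin, the enteric form. Its log2 ratio at 6 h was -0.59 with NT, -1.69 with S, -1.34 with C and -1.29 with CS. At 24 h it was 0.13, -0.82, -0.46 and -0.04, and at 48 h -0.31, -0.35, -0.21 and -0.17. The NT array of 6 h lay above the other arrays of that time, and 1 array of 24 h (S) overlapped the values of 6 h. The fitted value at 6 h was -1.23 ± 0.11 (adjusted p = 2.87e-05), or 2.34-fold lower, and it fell between -1.15 and -1.38 whichever single array was left out, and was -1.11 (adjusted p = 0.00214) without the 3 arrays. The ratio rose by 0.93 ± 0.16 from 6 to 24 h (adjusted p = 0.00943), a change of 0.87 with an adjusted p of 0.17 without the 3 arrays. From 6 to 48 h it rose by 0.97 ± 0.16 (adjusted p = 0.000398), and 0.85 without those arrays, where it was still called.

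Tagln, transgelin or SM22-alpha, is an actin-binding protein and an early marker of the smooth muscle lineage. Its log2 ratio at 6 h was -0.43 with NT, -1.73 with S, -1.06 with C and -1.08 with CS. At 24 h it was 0.08, -0.83, -0.39 and 0.08. At 48 h it was -0.19, 0.87, 1.13 and 0.94. Tagln was thus lower in co-culture on every array of 6 h and higher on the 3 arrays with a hormone at 48 h, while the NT array of 48 h lay on the other side of 0. The fitted values were -1.08 ± 0.22 at 6 h (adjusted p = 0.00194) and 0.69 ± 0.22 at 48 h (adjusted p = 0.0143), and the change between those times, 1.77 ± 0.31 (adjusted p = 0.000607), was the largest among the 9 genes in this fit. Without the arrays of doubted label the value at 6 h was -0.80 with an adjusted p of 0.0557 and was no longer called. At 48 h the call was lost without S 48 h (0.43, adjusted p = 0.141), without C 48 h (0.52, adjusted p = 0.109), without CS 48 h (0.66, adjusted p = 0.0587) with median centring (0.35, adjusted p = 0.102) and with scaled arrays (0.46, adjusted p = 0.0554), and the value was 1.15 without NT 48 h.

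Calponins bind actin and restrain its myosin-driven movement. Cnn1, the smooth muscle form, had log2 ratios of 0.08, 0.49, 0.27 and 0.42 at 6 h, of -0.01, 0.75, 0.19 and 0.09 at 24 h and of 0.88, 1.06, 0.40 and 0.77 at 48 h (NT, S, C and CS). It was higher in co-culture on 4 of 4 arrays at 48 h, with a fitted value of 0.78 ± 0.09 (adjusted p = 1.04e-05), or 1.72-fold, which median centring lowered to 0.56 and scaling to 0.52, under the fold threshold. Cnn2, the more widely expressed form, had log2 ratios of -0.45 to -0.71 at 6 h, -0.26 to 0.44 at 24 h and -0.56 to 0.13 at 48 h. It was at -0.55 ± 0.10 at 6 h (limma adjusted p = 0.0011), just under the fold threshold. It passed that threshold at -0.61 when the 2 probes of the gene were averaged and at a fitted -0.71 without the 3 arrays. The arrays then left at 6 h were at -0.45 (NT), -0.56 (C) and -0.71 (CS). With median centring the value was 0.02. The Cnn2 ratio rose by 0.63 ± 0.14 from 6 to 24 h (adjusted p = 0.0252), a call that was lost when any of 5 arrays was left out (S 6 h, C 6 h, CS 6 h, S 24 h and C 24 h, with changes of 0.53 to 0.70), with median centring (0.59, adjusted p = 0.0953) and without the 3 arrays (0.69, adjusted p = 0.159). The second Cnn2 probe averaged -0.68, -0.12 and 0.06 at the 3 times.

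Tropomyosins lie along the actin filament and, with caldesmon and troponin, set the access of myosin. Tpm2 had log2 ratios of -0.05 to 0.12 at 6 h, -0.16 to 0.20 at 24 h and 0.27 to 0.40 at 48 h. Its arrays of 48 h lay above all earlier ones, yet the value of 0.35 ± 0.06 (adjusted p = 0.00031) was under the fold threshold. Tpm1 was read by 5 probes designed on 4 transcripts, and they did not move alike. The brightest, on NM_001164249, had ratios of -0.47, -0.91, -0.51 and -0.46 at 48 h (NT, S, C and CS), and its fitted value of -0.59 ± 0.08 (adjusted p = 5.24e-05) was called. Both probes on NM_001164248 were above 0 on 4 of 4 arrays at that time, with means of 0.27 and 0.17, and those on NM_001164251 and NM_001164255 averaged -0.16 and 0.12. The mean of the Tpm1 probes at 48 h was -0.04 (adjusted p = 0.49). The call on Tpm1 is therefore one on the brightest probe and not on the gene as a whole, and that probe was at -0.47 without S 48 h and -0.39 with scaled arrays, under the fold threshold.

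**Figure D3:**
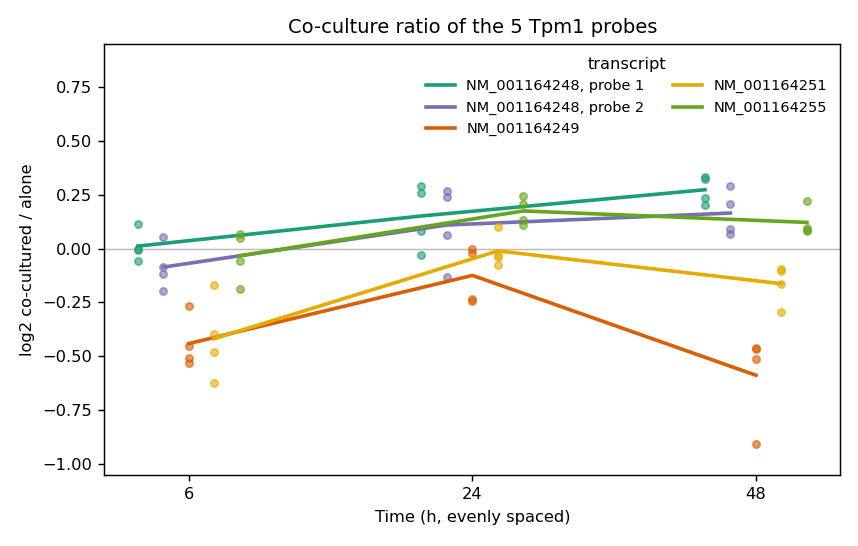
Log2 ratio of co-cultured over alone (y axis) at 6, 24 and 48 h (x axis) for the 5 Tpm1 probes, named by the transcript each was designed on, with 1 point per array and a line through the mean of 4 arrays. At 48 h the probe on NM_001164249 lay at -0.91 to -0.46, while both probes on NM_001164248 lay above 0.

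Des encodes desmin, the intermediate filament of muscle, and was read by 10 spots per array. The log2 ratio ranged from -0.17 to -0.03 at 6 h, from -0.11 to 0.15 at 24 h and from -0.06 to 0.17 at 48 h. The fitted values of -0.09 ± 0.06, -0.02 ± 0.06 and 0.07 ± 0.06 (adjusted p = 0.204, 0.839 and 0.242) passed no test.

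The single channels give the change over time in each kind of cell. In pre-adipocytes grown alone, 5 of the 9 genes fell from 6 to 24 h and 1 rose, where 5.89% of all genes tested fell and 5.26% rose. In co-cultured pre-adipocytes 2 fell and 1 rose, where 3.79% fell and 5.11% rose. The median log2 change of the 9 genes was -1.18 in cells alone and -0.37 in co-cultured cells, against 0.01 and 0.03 over all genes. The change in ratio itself, which tests the difference between the channels, was called for 3 of the 9 genes, all upward (Actg2, Cnn2 and Myl9), with 1.69% of all genes called upward and 0.662% downward. Without the 3 arrays of doubted label none of the 13903 genes tested was called for this change by limma, with 1816 at an unadjusted p under 0.05, of which 4 were among the 9. Slide and time cannot be told apart in any of these changes.

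Myl9 fell by 2.47 ± 0.20 on the log2 scale in cells alone from 6 to 24 h (limma adjusted p = 8.75e-05), or 5.55-fold, and by 1.34 ± 0.11 in co-cultured cells (adjusted p = 5.35e-05). Its log2 intensities in cells alone were 12.53, 13.16, 12.64 and 12.48 at 6 h and 10.51, 10.88, 9.61 and 9.93 at 24 h (NT, S, C and CS), and those in co-cultured cells 11.39, 11.37, 10.97 and 10.80 and then 10.21, 10.24, 9.40 and 9.33. The groups of 6 and 24 h did not overlap in either channel. Acta2 fell by 1.59 ± 0.22 in cells alone (adjusted p = 0.000932) and by 1.20 ± 0.15 in co-cultured cells (adjusted p = 0.000451). Its log2 intensities were 15.82 to 16.51 at 6 h and 14.15 to 15.29 at 24 h in cells alone, and 15.12 to 15.61 and 13.64 to 14.70 in co-cultured cells, again with no overlap. These 4 falls were also called with the 24 channels quantile-normalised, with the processed signals of Feature Extraction and without the 3 arrays.

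Actg2, Tagln and Cnn2 were called in cells alone only, which does not show by itself that the channels differed. Actg2 fell by 1.42 ± 0.27 in cells alone (adjusted p = 0.00439), with log2 intensities of 8.30 to 9.72 at 6 h and 7.05 to 8.41 at 24 h, which overlapped, and its change in co-cultured cells was -0.49 ± 0.15 (adjusted p = 0.028, under the fold threshold). With the processed signals of Feature Extraction the change of Actg2 in co-cultured cells was -1.13 and was called. Actg2 was dim in co-cultured cells, and the part of low signal in its smaller change there was not tested. Tagln fell by 1.18 ± 0.36 in cells alone (adjusted p = 0.0334), and was at -0.37 ± 0.10 in co-cultured cells. The difference between the channels for Tagln, 0.81 ± 0.31, was not called (adjusted p = 0.124). Cnn2 fell by 1.20 ± 0.28 in cells alone (adjusted p = 0.0111) and was at -0.58 ± 0.28 in co-cultured cells (adjusted p = 0.145); with the processed signals the latter was -0.66 and called. Without the 3 arrays these falls in cells alone were -1.37, -1.19 and -0.93 for Actg2, Tagln and Cnn2 and none was called (adjusted p = 0.0678, 0.189 and 0.183), and the Tagln call was also lost when any of 6 single arrays was left out.

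**Figure D4:**
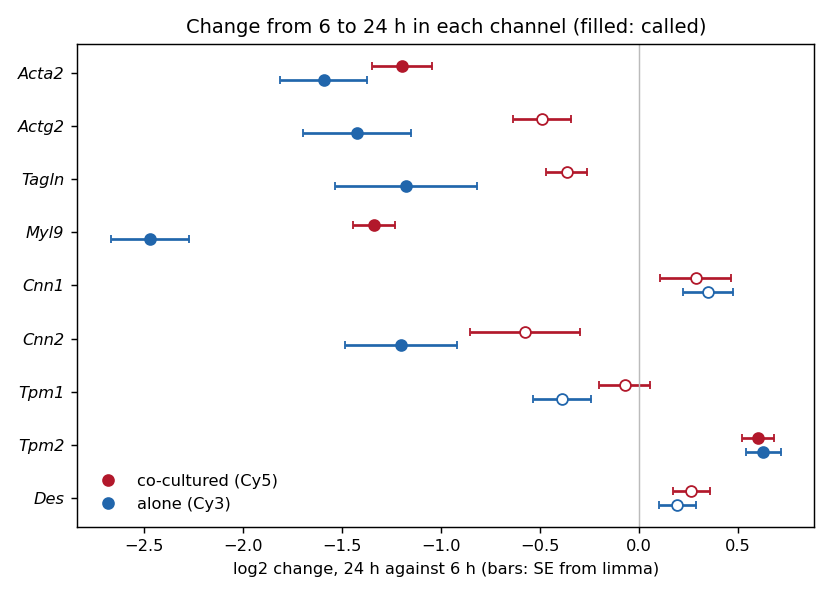
Log2 change from 6 to 24 h (x axis) in co-cultured cells (Cy5) and in cells alone (Cy3) for 9 genes, with bars of 1 SE from the fit over 12 arrays and filled points for changes called at adjusted p under 0.05 and 1.5-fold. Myl9 and Acta2 fell in both channels, Actg2, Tagln and Cnn2 were called in cells alone, and the brightest Tpm2 probe rose in both.

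The brightest Tpm2 probe went the other way, and alike in both channels. It rose from 6 to 24 h by 0.63 ± 0.09 in cells alone (adjusted p = 0.001) and by 0.60 ± 0.08 in co-cultured cells (adjusted p = 0.000591), and the ratio changed by -0.03 ± 0.09 between these times. Its log2 intensities in cells alone were 11.22 to 11.48 at 6 h, 11.67 to 12.14 at 24 h and 11.91 to 12.18 at 48 h. In co-cultured cells they were 11.20 to 11.57, then 11.75 to 12.33 and then 12.31 to 12.47, so that by 48 h this probe had risen 1.98-fold there. Both values at 24 h were near the fold threshold: that in co-cultured cells was 0.53 without S 24 h and 0.57 without the 3 arrays, and that in cells alone 0.56 without C 24 h and 0.56 with the processed signals, all under it.

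Between 24 and 48 h none of the 9 genes was called in cells alone by limma (1 had an unadjusted p under 0.05), where 1.13% of all genes fell and 3.37% rose. In co-cultured cells 1 fell and 1 rose, where 14.4% fell and 12% rose. Tagln rose by 0.89 ± 0.10 (adjusted p = 5.86e-05), or 1.85-fold, from log2 intensities of 8.40 to 8.87 at 24 h to 9.31 to 9.76 at 48 h, with no overlap. The probe of Tpm1 on NM_001164249 fell by 0.70 ± 0.13 (adjusted p = 0.00108), a change of -0.57 without the 3 arrays and with the processed signals, under the fold threshold. In the ratio, 1 of the 9 genes was called for the change from 24 to 48 h, Tagln, upward by 0.95 ± 0.31 (adjusted p = 0.023), where 9.32% of all genes rose and 11.6% fell. That call on Tagln was lost with median centring (0.37, adjusted p = 0.211), where Acta2, Cnn2, Myl9 and Tpm1 were called downward and the median of all genes was -0.63, without the 3 arrays (0.76, adjusted p = 0.183; 3 of the 9 genes had an unadjusted p under 0.05) and without any of S 24 h, C 24 h, S 48 h, C 48 h and CS 48 h.

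Tagln in cells alone at 48 h is where the NT array parted from the rest. Its log2 intensity there was 9.95 with NT and 8.82, 8.17 and 8.42 with S, C and CS, while the co-cultured channel ran from 9.31 to 9.76 over the same arrays. The ratio below 0 with NT at 48 h thus lay with the channel of the cells grown alone. Whether this came with the missing hormone or with that one culture or array position cannot be told apart.

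**Figure D5:**
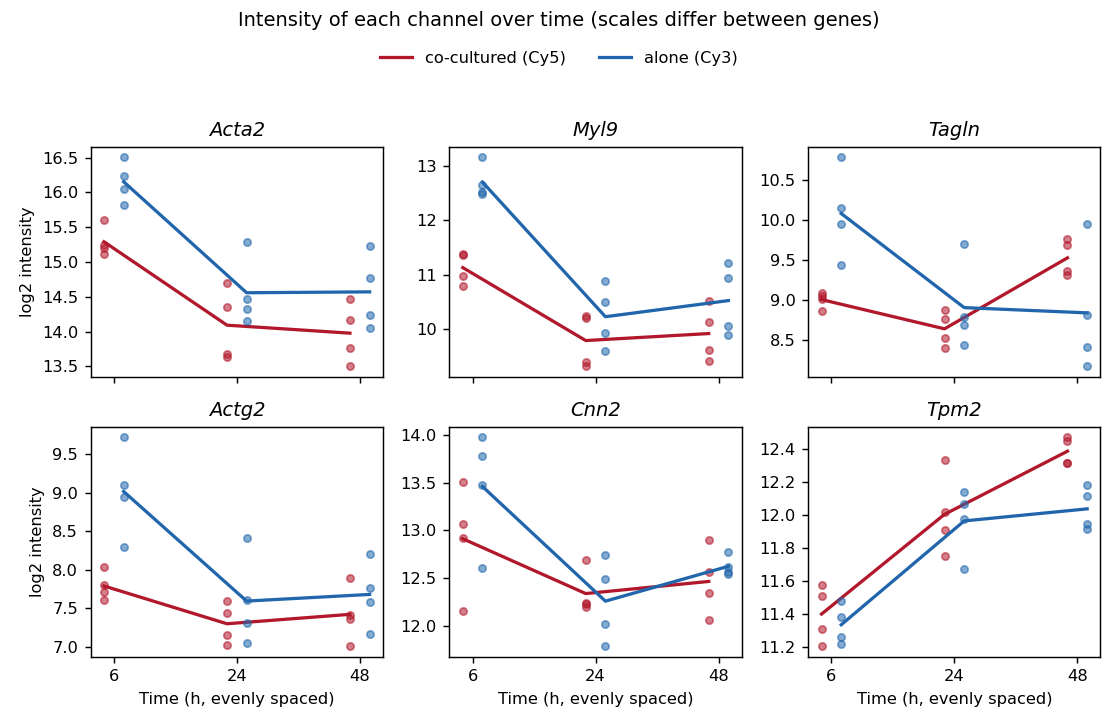
Log2 intensity (y axis, with its own scale for each gene) at 6, 24 and 48 h (x axis) in co-cultured cells (red, Cy5) and cells alone (blue, Cy3), with 1 point per array and a line through the mean of 4 arrays. For Myl9, Acta2, Tagln, Actg2 and Cnn2 the cells alone lay above the co-cultured cells at 6 h in loess-normalised channels. Median centring turned this direction for Acta2 and left no clear one for Cnn2, with log2 ratios of -0.07 to 0.11. Tagln in co-cultured cells rose between 24 and 48 h.

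Over the whole span from 6 to 48 h, 6 of the 9 genes fell in cells alone and 1 rose, where 6.14% of all genes fell and 7.47% rose. Without the 3 arrays 3 of the falls (Acta2, Actg2 and Myl9) and the rise of the brightest Tpm2 probe were called. Of all genes, 5.33% fell and 6.63% rose without them. In co-cultured cells 3 fell and 2 rose, where 14.3% fell and 14.2% rose. Cnn1 rose in co-cultured cells by 0.69 ± 0.18 (adjusted p = 0.00747) and changed by 0.23 ± 0.12 in cells alone (adjusted p = 0.192). The call on Cnn1 was lost without NT 6 h (0.53) and without NT 48 h (0.51), both under the fold threshold, and without the 3 arrays (0.63, adjusted p = 0.0767). In the ratio 3 of the 9 were called for this change, Actg2, Myl9 and Tagln, all upward and all also without the 3 arrays, where 11.9% of all genes rose and 12.2% fell. With median centring, where the median of all genes was -0.47, the rise of Myl9 was 0.25 (adjusted p = 0.341), and Acta2, at 0.27 ± 0.12 after loess, fell by 0.93 instead.

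Of the 9 genes, 1 (Myl9) was called against NT, with C and CS and in co-cultured cells only. Both calls were lost without the 3 arrays of doubted label. No gene of the 13887 was called in the ratio by limma for S, C or CS against NT (0% each), with 1819, 1362 and 1276 genes at an unadjusted p under 0.05, and 3, 1 and 0 of the 9 among them. For S none was called in either channel (0% of all genes), with 0 of the 9 at an unadjusted p under 0.05 in both. Myl9 was lower in co-cultured cells with C by 0.71 ± 0.12 on the log2 scale (adjusted p = 0.0188), or 1.64-fold, and with CS by 0.86 ± 0.12 (adjusted p = 0.00507), or 1.81-fold. In those cells 0.807% of all genes were called lower with C and 0.951% with CS. The difference of Myl9 from the NT array of the same time was -0.42, -0.81 and -0.90 with C at 6, 24 and 48 h, and -0.59, -0.89 and -1.10 with CS, so it was lower on 6 of 6 arrays. In cells alone, where 0.216% of all genes were called with C and 1.48% with CS, none of the 9 was called, with 2 at an unadjusted p under 0.05 in each. Myl9 there was at -0.65 ± 0.23 with C (adjusted p = 0.184) and -0.66 ± 0.23 with CS (adjusted p = 0.155), and differed from the NT array of the same time by 0.11, -0.90 and -1.17 with C and by -0.05, -0.58 and -1.33 with CS. The Myl9 calls in co-cultured cells were lost without the 3 arrays (-0.71 and -0.87, adjusted p = 0.102 and 0.101), and the one for C also without NT 24 h, C 24 h or C 48 h (adjusted p = 0.0643, 0.111 and 0.0875). Where both channels had the labelled treatment, the ratio compares the hormone effect in co-cultured cells with that in cells alone. It was not called. On S 6 h, S 24 h and CS 24 h, Zbtb16 in the cells alone went against the label. The contrasts of S and CS in the ratio and in cells alone therefore cannot decide whether the effect differed.

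The wider contractile and adhesion genes were listed as 60 names, of which 52 were tested. At 6 h 1 was called higher in co-culture and 4 lower, where 4.36% and 5.24% of all genes were, with a median log2 ratio of -0.09 against -0.02 over all genes. At 24 h 3 were higher and 0 lower, where 4.66% and 3.68% of all genes were (median 0.16 against 0.00). At 48 h 11 were higher and 4 lower, where 14.5% and 16.8% of all genes were (median 0.09 against -0.01). These counts moved with the normalisation. With median centring, 24 were higher and 0 lower at 6 h, 35 and 0 at 24 h and 17 and 6 at 48 h (medians 0.45, 0.79 and 0.17). Of all genes, 24.9%, 33.1% and 11.3% were higher in that setting and 1.62%, 0.771% and 26.1% lower. With scaled arrays 8 were higher and 1 lower at 48 h, where 7.45% and 8.88% of all genes were. At 24 h 1 was higher and 0 lower without the 3 arrays, where 4.38% and 3.71% of all genes were. In cells alone 10 fell and 0 rose from 6 to 24 h (median -0.26), where 5.89% of all genes fell and 5.26% rose, and in co-cultured cells 2 fell and 1 rose (median -0.06), where 3.79% fell and 5.11% rose. Leaving out the 3 arrays, 8 fell and 1 rose in cells alone, where 4.34% and 3.6% of all genes did. In co-cultured cells 2 fell and 0 rose without them, where 2.76% and 3.45% did. The 10 that fell in cells alone included the adhesion and crosslinking genes Vcl, Actn1, Palld and Flnc, the non-muscle myosin heavy chain Myh9 and the myosin light chain Myl6.

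Of those lower at 6 h, Vcl (vinculin, which links actin to focal adhesions) was at -0.92 ± 0.10 (adjusted p = 4.63e-05), Fhl2 (a LIM cofactor) at -0.76 ± 0.11 (adjusted p = 0.000322) and Ppp1r12a (the targeting subunit of myosin phosphatase) at -0.61 ± 0.08 (adjusted p = 0.000157). Each was below 0 on 4 of 4 arrays after loess, but with median centring none of these was called, with values of -0.24, -0.29 and 0.02. Without the 3 arrays their fitted values were -1.02, -0.99 and -0.53, the last under the fold threshold. The NT, C and CS arrays of 6 h had Fhl2 at -0.77, -0.74 and -0.71, all above its fitted value. Vcl fell by 1.57 ± 0.13 in cells alone from 6 to 24 h (adjusted p = 9.95e-05) and was at -0.43 ± 0.12 in co-cultured cells, and its ratio rose by 1.14 ± 0.14 (adjusted p = 0.00292), a rise of 0.99 with an adjusted p of 0.0916 without the 3 arrays, where no gene was called for this change. Synm, the intermediate filament protein synemin, was the 1 gene higher at 6 h, at 0.71 ± 0.16, and it was also among the highest of the list at 24 h (1.12 ± 0.16) and 48 h (2.19 ± 0.16, adjusted p = 3.67e-07). At 24 h Palld (palladin, of actin bundles) was at 0.72 ± 0.07 and Smtn (smoothelin, of contractile smooth muscle) at 0.72 ± 0.06. In the limma fit without the 3 arrays Palld (0.55, under the fold threshold) and Synm (0.75, adjusted p = 0.0575) were not called at 24 h, and Smtn was, at 0.67. The NT and C arrays of 24 h themselves had Palld at 0.69 and 0.81 and Synm at 0.76 and 0.91, all over the fold threshold.

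At 48 h Smtn was at 1.45 ± 0.06 (adjusted p = 2.11e-08) and Srf, the factor of the CArG box, at 1.33 ± 0.11 (adjusted p = 6.48e-07). The log2 ratio of Srf at 48 h was 1.51 with NT, 0.81 with S, 1.62 with C and 1.40 with CS, against -0.47 to -0.07 at 6 h and -0.09 to 0.32 at 24 h. In co-cultured cells Srf rose by 1.35 ± 0.15 from 24 to 48 h (adjusted p = 3.92e-05), and in cells alone it fell by 0.80 ± 0.13 from 6 to 24 h (adjusted p = 0.00184). The rise of Srf was 1.43 without the 3 arrays and was called, and its change in cells alone was then -0.51 with an adjusted p of 0.0532. Of its cofactors, Mrtfb was higher in co-culture at 48 h (0.73 ± 0.13, adjusted p = 0.000367), and Mrtfa was at 0.05 ± 0.07; with scaled arrays Mrtfb was at 0.49, under the fold threshold. The lowest of the list at 48 h were Lpp (-0.96 ± 0.08), Actn4 (-0.86 ± 0.07) and Cald1 (-0.80 ± 0.11), which serve adhesion, crosslinking and the thin filament. With scaled arrays Actn4 (-0.58) and Cald1 (-0.53) were under the fold threshold. At 48 h Srf was thus higher in co-culture while Acta2, Myl9 and the brightest Tpm1 probe were lower and Tagln and Cnn1 higher.

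All 16 genes of the TGF-beta response list were tested. At 6 h 1 was higher in co-culture and 5 lower, at 24 h 4 higher and 2 lower, and at 48 h 7 higher and 3 lower, where 4.36%, 4.66% and 14.5% of all genes were higher and 5.24%, 3.68% and 16.8% lower. The medians were -0.11, 0.11 and 0.29, against -0.02, 0.00 and -0.01 over all genes. With median centring 6 were higher and 1 lower at 6 h, 10 and 1 at 24 h and 5 and 4 at 48 h (medians 0.35, 0.66 and 0.00). Of all genes, 24.9%, 33.1% and 11.3% were higher in that setting and 1.62%, 0.771% and 26.1% lower. With scaled arrays 3 were higher and 5 lower at 6 h, where 6.26% and 8.14% of all genes were. At 24 h 2 were higher and 2 lower without the 3 arrays, where 4.38% and 3.71% of all genes were. The median was then -0.02. From 6 to 24 h 5 fell in cells alone and 0 rose, where 5.89% and 5.26% of all genes did. Without the 3 arrays 0 fell and 0 rose there, where 4.34% and 3.6% of all genes did. In co-cultured cells 1 fell and 0 rose over this span, where 3.79% and 5.11% did. Among the 5 falls in cells alone was Ccn2, the connective tissue growth factor. Ccn2 fell by 2.20 ± 0.38 (adjusted p = 0.00236), a change of -1.91 that was not called (adjusted p = 0.0648) without the 3 arrays. The ratio of Ccn2 went from -0.93 ± 0.19 at 6 h to 1.60 ± 0.19 at 24 h and 3.12 ± 0.19 at 48 h; the value at 6 h was -0.25 and not called with median centring, and that at 24 h was 1.18 without the 3 arrays. Postn, periostin of the matrix, was lower in co-culture at each time (-0.91, -1.09 and -1.50).

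Over the 12 ratios, the genes nearest to Acta2 by the root mean square difference among 13114 genes complete on all arrays were Zwilch (0.16), Pdlim1 (0.17) and Rnf121 (0.18). Those nearest to Tagln were Mir17hg (0.38), Ica1l (0.38) and Zfp948 (0.41), and those nearest to Myl9 were Nsd2 (0.35), Jade1 (0.38) and Sgms1 (0.39). Pdlim1, a LIM protein of actin stress fibres, averaged -0.84, -0.59 and -0.53 at the 3 times. The match was closer for Acta2 than for Tagln or Myl9.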

How the data were processed

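Two-colour Agilent mouse arrays (12) measured the 3T3-L1 RNA. The authors extracted spots with Agilent Feature Extraction; the headers name version 10.7.3.1, whereas 10.5.1.1 stands in the notes that the submitters gave on processing. What was deposited is, per spot, an intensity for each channel on a linear scale, its local background, other flags, and the log10 of Cy5 over Cy3. The deposited matrix held the same log10 values.

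Median spot intensities were corrected by normexp (offset 50) and normalised by loess within arrays in limma 3.58.1 (R 4.3.3, statmod 1.5.0, with data.table at version 1.17.8). Local backgrounds over 5 times the array median were set to it and the spot left out, as were control and outlier spots. Of 39429 probes, 27508 were named through RefSeq accessions of GRCm38.p6. A probe was kept if 3 or more arrays had it well above background, whichever the channel; the brightest stood for a gene. Per array, 18443 to 22824 probes were well above background in a channel, and the number of arrays limits the precision. Single channels were taken after loess and Aquantile. Levels were compared within a probe only.

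Time and treatment were additive terms over 12 arrays (6 residual degrees of freedom; lmFit, eBayes with trend, two-sided, Benjamini-Hochberg over all genes). Calls needed an adjusted p under 0.05 and 1.5-fold. On simulated arrays of 13114 genes for the comparison at 6 h, 98 of 100 genes changed by 1 on the log2 scale and 100 of 100 changed by 2 were recovered, with 0 false calls. The simulated noise was normal, independent between arrays and free of treatment, slide, dye and intensity effects. The simulation thus checks the fit and says nothing about the error of the real arrays. Genes named were all members, the 3 highest and 3 lowest called genes of the wider list per time with 1 sign on 4 of 4 arrays, the 3 nearest genes of Acta2, Tagln and Myl9, and hormone check genes; Ccn2, Postn, Actn1, Flnc, Myh9, Myl6, Mrtfa, Mrtfb and marker genes were picked after their values were seen. Members and lists were chosen with earlier results of these data known. Alternatives were the offset, normalisations, filter, probe averaging, saturated spots, the model, array weights and arrays left out. The effects on the gene lists were computed after the data were seen.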

Additional observations from a re-analysis of the deposited data

Results flagged for a closer look

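In 3 of 81 sets of 4 arrays (a gene at a time, as ratio or channel) 1 array lay apart from the others by Dixon's criterion, which chance does in about 1 of 20 sets; the 4 arrays differ in treatment and are no replicates. Cnn2 in co-cultured cells at 24 h was at a log2 intensity of 12.69 with NT and 12.20 to 12.24 on the other 3 arrays. Tpm1 at 48 h had a log2 ratio of -0.91 with S and -0.51 to -0.46 on the others. Tpm2 at 6 h had a log2 ratio of -0.054 with CS and 0.09 to 0.12 on the others.

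The co-culture ratio differed between times for 4 genes by the limma contrast between them. From 6 to 24 h it rose by 1.13 for Myl9 (adjusted p = 0.00322), 0.93 for Actg2 (adjusted p = 0.00943) and 0.63 for Cnn2 (adjusted p = 0.0252). From 24 to 48 h it rose by 0.95 for Tagln (adjusted p = 0.023). From 6 to 48 h it rose by 1.77 for Tagln (adjusted p = 0.000607), 0.97 for Actg2 (adjusted p = 0.000398) and 0.96 for Myl9 (adjusted p = 0.00016). Without the arrays labelled S 6 h, S 24 h and CS 24 h, the changes from 6 to 24 h and from 24 to 48 h were not called, and those from 6 to 48 h were. Slide and time cannot be told apart in these differences.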

How the results depend on the processing

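All values here are from limma fits. Of 3105 values of single genes under the alternatives, 2986 stayed on the same side of the call rule without turning a call, 85 lost a call, 32 gained one and 2 turned direction; 133 values below the rule in both fits also changed sign. Both reversals were of Acta2 with median centring: 0.36 at 6 h, and -0.93 for the ratio of 48 against 6 h. The count of the 9 genes called at 48 h (5) was 3 with offset 16, 2 with median centring, 3 with the deposited log ratio, 0 with arrays scaled to a common spread and 2 with array weights, and that at 24 h (0) was 1 with median centring. For the ratio of 24 against 6 h (3) it was 1 with the deposited ratio and 0 without the 3 doubted arrays. For 48 against 24 h (1) it was 2 with offset 16, 4 with median centring, 2 with the deposited ratio and 0 without those arrays. In co-cultured cells, the count for 48 against 24 h (2), C (1) and CS (1) was 1, 0 and 0 without those arrays, and that for 24 against 6 h (3) and 48 against 6 h (5) was 5 and 8 with processed signals at the 75th percentile. In cells alone, 24 against 6 h (6) and 48 against 6 h (7) gave 3 and 4 without those arrays. The share of all genes called moved between settings as well. With median centring 33.1% were higher and 0.771% lower at 24 h, and 2.15% higher and 52.6% lower for 48 against 24 h. The counts of this section therefore show only how calls on the 9 genes moved, and not whether these genes differed from all genes.

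When each array was left out in turn, the ratio counts ran from 4 to 5 at 6 h, 0 to 0 at 24 h, 3 to 5 at 48 h, 2 to 4 for 24 against 6 h, 0 to 1 for 48 against 24 h and 3 to 3 for 48 against 6 h. In co-cultured cells they ran from 2 to 5, 2 to 2 and 4 to 6 for 24 against 6, 48 against 24 and 48 against 6 h, from 0 to 1 for C and from 1 to 2 for CS. In cells alone they ran from 4 to 6, 0 to 0 and 4 to 7, and the other hormone counts were 0 throughout. The cause of these shifts was not tested. Mean spot signals were not run, as no such column was used here. Each array's ratio already pairs co-cultured cells with cells alone. No paired analysis was possible because each condition had 1 array, so replicate numbers give no block.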
